A study of Homo sapiens with 4 samples.

Results

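Osimertinib blocks the kinase of *EGFR*, and a cancer cell can escape it by passing the same growth signals through another receptor. The genes described here are 10 such bypass receptors and the proteins that bind their ligands or the receptors themselves, taken by name from the 16813 genes listed in any library. They were *MET* and its relative *MST1R*, the TAM receptors *AXL* and *TYRO3* with their ligand *GAS6*, the receptors *IGF1R* and *INSR*, and the insulin-like growth factor (IGF) binding proteins *IGFBP2*, *IGFBP3* and *IGFBP6*. The rule gives names and no threshold on a measured value, though the set was drawn up with earlier results of these libraries known. All 10 were listed in every library, with between 298 and 12485 expected counts, and all 10 passed the filter on low counts.

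The libraries came from PC9, an *EGFR*-mutant lung adenocarcinoma line that served as the control, and from PC9OR, a line derived from it that is resistant to osimertinib, with 2 biological replicates of each. Both lines carried the genotype label WT and were grown in serum-containing RPMI medium, and no drug is named in the labels of these libraries. PC9OR was 1 derived line, so a difference between PC9OR and PC9 cells belongs to that line and cannot be extended to osimertinib resistance from these libraries. The question was which genes differ in abundance between the resistant line and its parent.

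A receptor tyrosine kinase binds its ligand outside the cell, pairs with another receptor molecule and phosphorylates adaptor proteins inside. *MET* responds to hepatocyte growth factor and *MST1R* to macrophage stimulating protein. *AXL*, *TYRO3* and the related *MERTK* bind *GAS6*, which bridges them to phosphatidylserine on membranes. *IGF1R* and *INSR* can form homodimers or mixed dimers, and the IGFBPs hold IGFs outside the cell and control how much reaches the receptors. In lung cancer treated with EGFR inhibitors, amplification of *MET* and raised *AXL* are textbook routes of bypass signaling.

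The libraries held between 23201307 and 32203998 expected counts, which are estimates of read number and can be fractional. The PC9 replicates differed from each other more than the PC9OR replicates did, with a biological coefficient of variation of 0.241 in PC9 and 0.104 in PC9OR cells. The difference between the PC9 replicates followed transcript length, with a Spearman correlation across 11965 genes of -0.44, against 0.0021 between the PC9OR replicates. The difference between the lines also followed length, at -0.39, so each fold change below is followed, where it matters, by its value after a smooth length curve was fitted to each library as an offset. Of 7 epithelial markers, 7 were detected in both lines, with a summed FPKM (read fragments scaled by transcript length and library size) of 2696 and 3140 in PC9 and 5849 and 5635 in PC9OR cells, where 4 of them were called higher and 1, *CDH1*, lower. The part of this shift in the results was not tested. The summed FPKM of 6 fibroblast markers stayed between 0.18 and 0.25 and that of 5 leukocyte markers between 0.22 and 0.97. Endothelial markers summed to 4.1 to 6.51 FPKM in PC9 and 0.87 to 0.88 in PC9OR cells, almost all from *CDH5*, with *KDR* not listed, and their part in the results was not tested.

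The promoters of the 4 receptors on which the results turn are shown for context. In the fit without length offsets *MET* and *IGF1R* were called lower and *AXL* and *INSR* higher in PC9OR cells. Each is the 250 bases before a RefSeq transcription start on GRCh38.p14, 5′ to 3′ on the strand of the gene, with GC boxes (GGGCGG or its reverse complement CCGCCC, which may overlap) in capitals. *MET* is on the plus strand at chr7:116671946-116672195, *AXL* (the first of its starts) on the plus strand at chr19:41218973-41219222, *IGF1R* on the plus strand at chr15:98648289-98648538 and *INSR* on the minus strand at chr19:7294415-7294664.

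MET: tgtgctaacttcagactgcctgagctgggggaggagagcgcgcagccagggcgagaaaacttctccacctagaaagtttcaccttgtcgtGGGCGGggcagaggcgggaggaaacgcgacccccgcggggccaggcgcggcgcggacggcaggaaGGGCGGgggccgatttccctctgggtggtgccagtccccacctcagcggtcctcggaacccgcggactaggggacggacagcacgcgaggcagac
AXL: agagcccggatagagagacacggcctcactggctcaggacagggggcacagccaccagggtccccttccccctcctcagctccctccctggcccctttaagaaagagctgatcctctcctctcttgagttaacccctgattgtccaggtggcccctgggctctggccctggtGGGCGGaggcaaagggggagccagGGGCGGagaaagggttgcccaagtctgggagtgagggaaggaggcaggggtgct
IGF1R: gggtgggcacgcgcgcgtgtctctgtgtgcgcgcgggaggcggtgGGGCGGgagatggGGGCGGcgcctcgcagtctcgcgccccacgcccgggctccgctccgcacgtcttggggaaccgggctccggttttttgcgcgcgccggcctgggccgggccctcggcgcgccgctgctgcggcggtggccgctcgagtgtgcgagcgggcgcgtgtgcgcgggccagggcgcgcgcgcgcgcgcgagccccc
INSR: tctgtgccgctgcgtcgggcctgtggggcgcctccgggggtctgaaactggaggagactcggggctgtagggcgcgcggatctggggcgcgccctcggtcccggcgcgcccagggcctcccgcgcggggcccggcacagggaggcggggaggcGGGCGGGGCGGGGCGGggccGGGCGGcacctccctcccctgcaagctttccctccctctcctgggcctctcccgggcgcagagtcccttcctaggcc

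All 4 stretches were rich in G and C, at 68.4% for *MET*, 64.4% for *AXL*, 81.2% for *IGF1R* and 78.4% for *INSR*. The GC box, the sequence that SP1 family factors recognize, was found 2 times in *MET*, 2 times before this *AXL* start, 2 times in *IGF1R* and 4 times in *INSR*. It was present before at least 1 start of all 10 genes and before 11 of their 14 starts, against 42.6% of the 35116 promoters in the table. That share is per start, not per gene, and was not limited to expressed genes, so enrichment in the 10 genes was not tested. The AP-1 search used TGANTCA, a loose form of the motif with any base at N. Neither that pattern nor the TEAD motif GGAATG (both strands searched) was found in the 4 stretches shown. *TYRO3* alone among the 10 genes held the loose AP-1 pattern, there as TGAATCA. The pattern occurred in 6.57% of all promoters. The TEAD letters were found before the second *AXL* start and before *IGFBP6*, and in 11.9% of all promoters. Receptors that were higher and receptors that were lower in PC9OR cells both held the GC box letters in this window.

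Of the 10 genes, 3 were higher (*AXL*, *GAS6* and *INSR*) and 4 were lower (*MET*, *IGF1R*, *IGFBP2* and *IGFBP3*) in PC9OR cells at an adjusted p under 0.05 (quasi-likelihood test of edgeR, adjusted over 13148 genes by Benjamini-Hochberg). Across all 13148 genes tested, 15.6% were called higher and 20.8% lower, 36.4% in all. *INSR* was the only one of the 10 called higher by more than 2-fold, and *MET*, *IGF1R* and *IGFBP3* were called lower by more than 2-fold, against 6.13% and 11.6% of all genes. The median log2 fold change of the 10 genes was -0.11, against 0.01 for all genes, so the set moved in both directions rather than one way. The normalized counts of the replicates did not overlap between the lines for any of the 10 genes, 5 being higher and 5 lower, but 39.6% of all genes were higher and 38.2% lower by that measure. At the study's own threshold, more than 2-fold and an adjusted p under 0.001, this edgeR fit called 0 of the 13148 genes. The study applied that threshold to a different test, DEGseq, so the 0 is no measure of the study's calls. At more than 2-fold and an unadjusted p under 0.05, edgeR's test called 20.4% of the genes, *MET*, *IGF1R*, *INSR* and *IGFBP3* among them. Without PC9OR replicate 1 or 2, fewer of the 10 genes were called, but calls fell over all genes too. In those fits PC9OR was assumed to vary like PC9, whose replicates differed more. The log2 fold changes of all 10 genes kept their sign. With 2 libraries against 2, an exact two-sided permutation test of a single gene cannot give a p below 0.333, so the p-values rest on the fit across all genes.

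**Figure D1:**
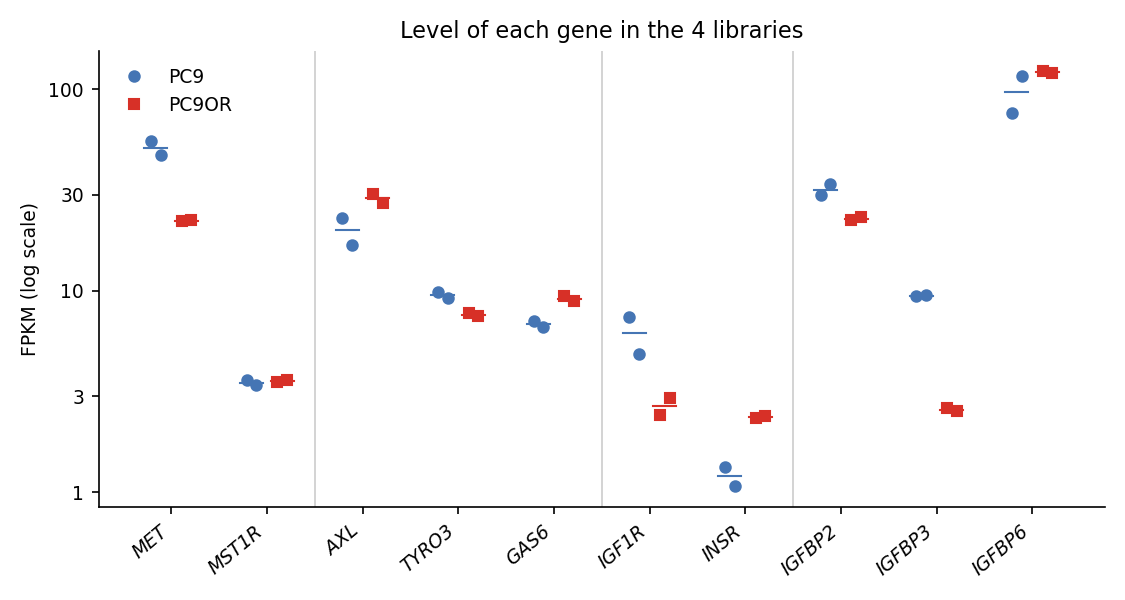
FPKM (log scale) of the 10 genes in the 2 PC9 libraries (blue circles) and the 2 PC9OR libraries (red squares), with a line at the mean of each line and grey lines between receptor groups. *MET* and *IGFBP3* sit clearly lower and *INSR* clearly higher in PC9OR cells, while the *MST1R* points lie on top of each other between 3.39 and 3.61 FPKM. *IGF1R* also sits lower, but its call was lost with length offsets.

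*MET* (Entrez 4233), the hepatocyte growth factor receptor, lies on the plus strand of GRCh37 at chr7:116312250-116438431 and has 4 transcripts in the files. Its level was 55.4 and 47.3 FPKM in the PC9 replicates and 22.2 and 22.5 FPKM in the PC9OR replicates. The PC9OR libraries were close together and well under both PC9 libraries. In normalized counts *MET* was 2.19-fold lower in PC9OR cells, a log2 fold change of -1.13 (SE 0.109, 95% interval -1.41 to -0.85, adjusted p = 0.00547 by edgeR's quasi-likelihood test). With length offsets the log2 fold change was -0.71 (adjusted p = 0.00656), and the call held in 15 of 15 alternatives. Among the genes listed in each library, *MET* stood at the 93.7 and 91.7 percentile of FPKM in PC9 and at the 81.9 and 82.4 percentile in PC9OR cells, so it remained a well expressed gene. In bulk libraries such as these, fewer cells that express a gene and less of its RNA per cell cannot be told apart. The transcript length that the isoform mix gave was 6112 and 6417 bases in PC9 and 6440 and 6328 bases in PC9OR cells, and the lines overlapped.

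The tested genes around *MET* moved in both directions. The 10 nearest, 5 on each side, ranged around a median log2 fold change of 0.65, from -2.59 to 1.27. The caveolin genes just before it were named after their values were seen. *CAV1* had 244 and 245 counts scaled to library size (CPM) in PC9, against 437 and 417 in PC9OR cells, a log2 fold change of 0.80 (adjusted p = 0.00866). *CAV2* had a log2 fold change of 0.64 (adjusted p = 0.0261), and *CAPZA2*, the next gene after *MET*, of 0.73 (adjusted p = 0.0297). *ST7-OT4*, at under 3 CPM in every library, was the only one of these 10 neighbours more than 2-fold lower (log2 fold change -2.59, adjusted p = 0.0137), and it overlaps *ST7*, which had a log2 fold change of -0.33 (adjusted p = 0.259). Of the 10 neighbours, 5 were called higher and 1 lower in the fit without offsets, against 15.6% and 20.8% of all genes.

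*MST1R* (Entrez 4486), the receptor for macrophage stimulating protein and the closest relative of *MET*, lies on the minus strand at chr3:49924435-49941306. It had 3.61 and 3.39 FPKM in PC9 and 3.54 and 3.59 FPKM in PC9OR cells. The FPKM values of the lines overlapped. The log2 fold change of normalized counts was 0.06 (SE 0.127, 95% interval -0.26 to 0.39, adjusted p = 0.717), an interval that excludes a 2-fold change in either direction. With length offsets it was 0.30 (adjusted p = 0.115).

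*AXL* (Entrez 558), the TAM receptor most often linked to EGFR inhibitor bypass, lies on the plus strand at chr19:41725128-41767671. Its level was 23 and 17.0 FPKM in PC9 and 30.4 and 27.4 FPKM in PC9OR cells. The lines did not overlap, but the distance from the higher PC9 library to the lower PC9OR library was smaller than that between the PC9 replicates. In normalized counts the log2 fold change was 0.57 (SE 0.165, 95% interval 0.15 to 0.99, adjusted p = 0.0491), which is 1.48-fold higher. That call was close to the threshold and was lost in 6 of 15 alternatives, DESeq2 size factors (adjusted p = 0.0540) among them. It was also lost without PC9OR replicate 1 (log2 fold change 0.51) and without PC9OR replicate 2 (0.64). With length offsets the difference was larger, at 0.85 (SE 0.124, adjusted p = 0.0064).

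*TYRO3* (Entrez 7301), another TAM receptor, lies on the plus strand at chr15:41849873-41875787. It had 9.83 and 9.21 FPKM in PC9 and 7.77 and 7.48 FPKM in PC9OR cells. The lines did not overlap, and the log2 fold change of -0.28 (SE 0.107) had an adjusted p of 0.0922. With length offsets it was -0.10 (adjusted p = 0.505), and with length and GC offsets it changed sign to 0.09. Without PC9 replicate 2 the log2 fold change was -0.33 (adjusted p = 0.0272). *MERTK*, the remaining TAM receptor, was low in both lines, at 0.58 and 0.57 FPKM in PC9 and 0.63 and 0.70 FPKM in PC9OR cells (adjusted p = 0.5).

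*GAS6* (Entrez 2621), the secreted ligand of the TAM receptors, lies on the minus strand at chr13:114523522-114567049. Its level was 7.07 and 6.59 FPKM in PC9 and 9.38 and 8.90 FPKM in PC9OR cells. The lines did not overlap, with PC9OR higher. In normalized counts the log2 fold change was 0.45 (SE 0.118, adjusted p = 0.0384), or 1.37-fold higher, and with length offsets it was again 0.45 (adjusted p = 0.0286). The call was lost without PC9OR replicate 1 (log2 fold change 0.43), without PC9OR replicate 2 (0.48) and by limma on log2(FPKM + 1) (adjusted p = 0.0526). *PROS1*, the other TAM ligand, was scarcely detected, at 34 and 39 counts in PC9 and 22 and 27 counts in PC9OR cells (log2 fold change -0.87, adjusted p = 0.133). *GAS6* was thus more abundant per length than *PROS1* in both lines, as *AXL* was than *TYRO3* and *MERTK*.

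*IGF1R* (Entrez 3480), the receptor for IGFs, lies on the plus strand at chr15:99191768-99507759 and has the longest transcript of the 10 genes, at 12.2 kb. Its level was 7.44 and 4.85 FPKM in PC9 and 2.41 and 2.94 FPKM in PC9OR cells. Both PC9OR libraries were below both PC9 libraries, but the PC9 replicates also stood apart, by 0.58 on the log2 scale in normalized counts. The log2 fold change was -1.16 (SE 0.235, 95% interval -1.76 to -0.55, adjusted p = 0.0212), or 2.23-fold lower. With length offsets it was -0.25 (SE 0.132, 95% interval -0.58 to 0.08, adjusted p = 0.182), and with length and GC offsets it was -0.04, so the call for *IGF1R* depended on how length was treated. Without PC9OR replicate 1 the call was lost, at a log2 fold change of -1.0. Without PC9OR replicate 2 the log2 fold change was -1.31.

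*INSR* (Entrez 3643), the insulin receptor and partner of *IGF1R* in mixed dimers, lies on the minus strand at chr19:7112266-7294425. Its level was the lowest of the 10 genes in PC9 cells, at 1.34 and 1.07 FPKM, and was 2.35 and 2.40 FPKM in PC9OR cells. The PC9OR libraries were nearly equal and lay above the PC9 libraries. Its log2 fold change was 1.02 (SE 0.153, 95% interval 0.63 to 1.41, adjusted p = 0.0113), or 2.03-fold higher, and the call held in 15 of 15 alternatives. *INSR* has the second longest transcript of the 10 genes, at 9.35 kb, and moved against the length trend, so with length offsets its log2 fold change rose to 1.71 (SE 0.121, adjusted p = 0.00117). Around *INSR*, the median over its 10 tested neighbours was 0.09 on the log2 scale. Among them only *PEX11G* was more than 2-fold higher and only *MCOLN1* more than 2-fold lower (log2 fold changes 1.47 and -1.18).

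The binding proteins differed from one another. *IGFBP3* (Entrez 3486), the main IGF carrier of blood, lies on the minus strand at chr7:45951844-45961473. It had 9.41 and 9.52 FPKM in PC9 and 2.61 and 2.53 FPKM in PC9OR cells, with the closest PC9 replicates of the 10 genes. Its log2 fold change was -1.85 (SE 0.131, 95% interval -2.18 to -1.51, adjusted p = 0.0040), or 3.60-fold lower. It was the largest change among the 10 genes in that fit, was -1.84 with length offsets and stayed called in 15 of 15 alternatives. Its 10 tested neighbours had a median of -0.61. In the fit without offsets 5 of them were called lower and 0 higher, against 20.8% and 15.6% of all genes. Its nearest neighbour, *IGFBP1*, had 27 and 45 counts in PC9 and 8 and 0 counts in PC9OR cells (adjusted p = 0.064), and *LINC01447*, at under 1 CPM, was also more than 2-fold lower (adjusted p = 0.0308).

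Beside the other genes, some neighbours also had values in the same direction of more than 2-fold, passing the test or not. Near *IGF1R* these were *MCTP2* (log2 fold change -1.12, adjusted p = 0.0374) and *LINC00923* (-1.75, adjusted p = 0.0516). Near *GAS6* they were *GRTP1* (2.42, adjusted p = 0.00813) and *ADPRHL1* (1.83, adjusted p = 0.0117). Near *TYRO3* they were *MAPKBP1* (-1.11, adjusted p = 0.016) and *JMJD7-PLA2G4B* (-1.17, adjusted p = 0.237), and near *IGFBP6* they were *KRT18* (1.13, adjusted p = 0.00646) and *TNS2*. Around *MST1R*, *AXL* and *IGFBP2*, 0 tested neighbours did so. Neighbours of these genes also differed by more than 2-fold in the opposite direction. Near *IGF1R* there were 2, *SYNM* (8.51, at 0 CPM in PC9) and *IRAIN* (2.45), and near *GAS6* 1, *CHAMP1* (-2.25). Near *IGFBP6* there were 3, *RARG* (-2.06), *ESPL1* (-1.52) and *TNS2-AS1* (-1.27). There were 2 near *AXL*, 1 near *IGFBP2* and 0 near *TYRO3* and *MST1R*.

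*IGFBP2* (Entrez 3485), an IGF carrier with more affinity for IGF2, lies on the plus strand at chr2:217497551-217529159. It had 29.8 and 33.8 FPKM in PC9 and 22.6 and 23.1 FPKM in PC9OR cells. The lines did not overlap, and the log2 fold change was -0.46 (SE 0.133, 95% interval -0.80 to -0.12, adjusted p = 0.0497), or 1.37-fold lower. The call was lost without PC9OR replicate 1 (log2 fold change -0.42), without PC9OR replicate 2 (-0.49) and without the filter on low counts (adjusted p = 0.0667). With length offsets the log2 fold change was -0.74 (adjusted p = 0.00631).

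*IGFBP6* (Entrez 3489), which binds IGF2 in preference to IGF1, lies on the plus strand at chr12:53491220-53496129 and has the shortest transcript of the 10 genes, at 966 bases. It was the most abundant of them per length in both lines, with 76.4 and 117 FPKM in PC9 and 123 and 120.2 FPKM in PC9OR cells. PC9 replicate 1 was low, and PC9 replicate 2 was close to the PC9OR libraries. The test gave a log2 fold change of 0.34 (SE 0.221, 95% interval -0.22 to 0.91, adjusted p = 0.263), which was -0.02 with length offsets (adjusted p = 0.916). Without PC9 replicate 1 the log2 fold change was 0.05 (adjusted p = 0.495), and without PC9 replicate 2 it was 0.68 (adjusted p = 0.00205).

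**Figure D2:**
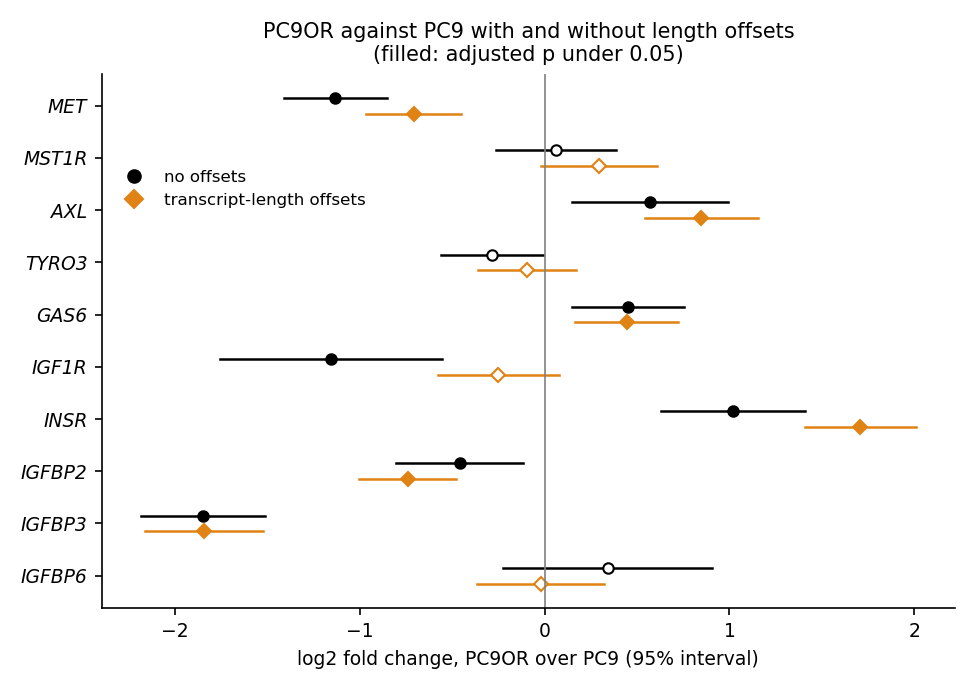
Log2 fold change of PC9OR over PC9 for the 10 genes with 95% intervals, without offsets (black circles) and with transcript-length offsets (orange diamonds), filled where the adjusted p was under 0.05. The intervals of *MET*, *AXL*, *GAS6*, *INSR*, *IGFBP2* and *IGFBP3* stay clear of 0 in both fits. *IGF1R* moves from -1.16 to -0.25, and *AXL*, *INSR* and *IGFBP2* move away from 0.

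The 10 genes did not follow length strictly. Between the PC9 replicates, replicate 2 minus replicate 1, the log2 difference was -0.58 for *IGF1R*, -0.28 for *INSR*, -0.40 for *AXL* and -0.12 for *MET*, so *AXL* at 4.72 kb moved more than the longer *INSR* and *MET*. It was 0.25 for *IGFBP2* and 0.63 for *IGFBP6*, the shortest of the 10. The remaining genes, *MST1R*, *TYRO3*, *GAS6* and *IGFBP3*, lay between -0.07 and 0.05. *GAS6* and *IGFBP3* have transcripts of 2535 and 2613 bases, near the median of 2989 bases over the genes tested, and their fold changes hardly moved between the fits. With length offsets 3 of the 10 genes were higher and 3 lower, against 19.9% and 18.4% of all genes. By more than 2-fold, 1 (*INSR*) was higher and 1 (*IGFBP3*) lower with length offsets, against 6.4% and 9.48% of all genes. Whether length stands for RNA quality, fragment size or a difference between the cells was not tested.

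**Figure D3:**
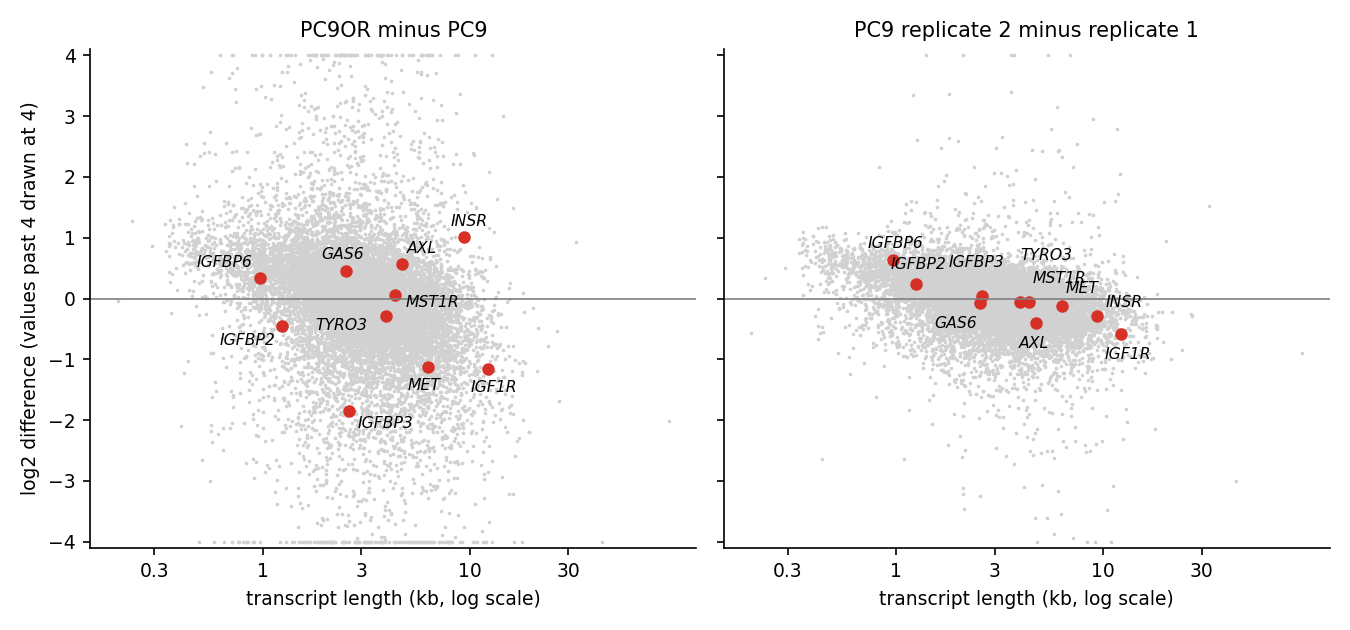
Log2 difference of all tested genes (grey) and the 10 genes (red) against transcript length (kb, log scale), for PC9OR minus PC9 (left) and PC9 replicate 2 minus replicate 1 (right). Long transcripts lie lower and short ones higher in both panels, with *IGF1R* at 12.2 kb low in both and *INSR* at 9.35 kb above 0 between the lines.

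Per length, the order of the genes was *IGFBP6*, *MET*, *IGFBP2*, *AXL*, *TYRO3*, *IGFBP3*, *GAS6*, *IGF1R*, *MST1R* and *INSR* in PC9 cells, from the highest FPKM to the lowest. The ranges of *TYRO3* and *IGFBP3* overlapped, and so did those of *GAS6* and *IGF1R*. In PC9OR cells the order was *IGFBP6*, *AXL*, *IGFBP2*, *MET*, *GAS6*, *TYRO3*, *MST1R*, *IGF1R*, *IGFBP3* and *INSR*, with overlapping ranges for *IGF1R* and *IGFBP3*. *MET* and *AXL* exchanged places as the receptor with the highest FPKM.

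Ratios of FPKM within a library do not depend on how libraries are scaled, though they still follow length where the genes differ in it. The ratio of *MET* to *AXL* was 2.41 and 2.78 in PC9 and 0.731 and 0.82 in PC9OR cells, so *MET* exceeded *AXL* in both PC9 libraries and fell short of it in both PC9OR libraries. The ratio of *IGF1R* to *INSR*, the longest transcripts of the 10, was 5.55 and 4.53 in PC9 and 1.03 and 1.22 in PC9OR cells. The receptors of this pair were thus close to equal in PC9OR cells. The ratio of *IGFBP6* to *IGFBP3* was 8.12 and 12.3 in PC9 and 47.1 and 47.5 in PC9OR cells. These ratios are given as values with no test.

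As a share of the summed FPKM of the 6 receptors, *MET* made up 55.1% and 57.1% in PC9 and 32.3% and 33.9% in PC9OR cells. *AXL* made up 22.8% and 20.5% in PC9 and 44.2% and 41.3% in PC9OR cells. *TYRO3* kept nearly the same share, between 9.78% and 11.3% in the 4 libraries. The sum itself was 101 and 82.8 FPKM in PC9 and 68.6 and 66.3 FPKM in PC9OR cells. For the 3 binding proteins the sum was 116 and 160.2 FPKM in PC9 and 148 and 146 FPKM in PC9OR cells, and *IGFBP6* made up 66.1% and 72.9% of it in PC9 and 83% and 82.4% in PC9OR cells.

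**Figure D4:**
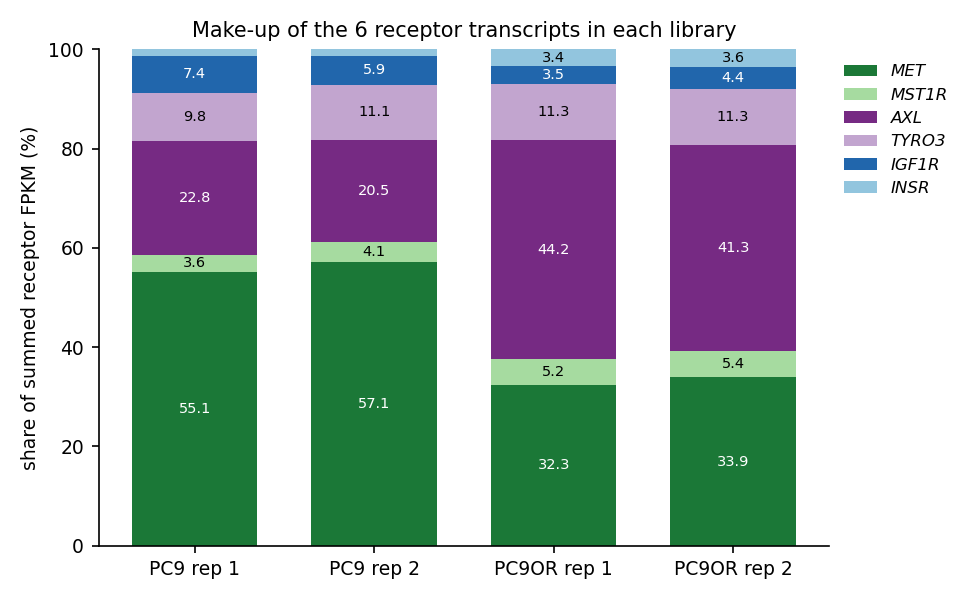
Share (%) of the summed FPKM of *MET*, *MST1R*, *AXL*, *TYRO3*, *IGF1R* and *INSR* in each of the 4 libraries, stacked to 100. *MET* takes 55.1% and 57.1% in PC9 and 32.3% and 33.9% in PC9OR cells, and *AXL* 22.8% and 20.5% against 44.2% and 41.3%; the unlabelled top segments in PC9 are *INSR* at 1.33% and 1.29%.

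*EGFR*, the target of osimertinib, was the reference for these receptors. It had 153 and 96.8 FPKM in PC9 and 40.9 and 37.5 FPKM in PC9OR cells (log2 fold change -1.46, SE 0.237, adjusted p = 0.0132). The ratio of *AXL* to *EGFR* was 0.150 and 0.176 in PC9 and 0.742 and 0.731 in PC9OR cells. The ratio of *MET* to *EGFR* was 0.361 and 0.489 in PC9 and 0.543 and 0.599 in PC9OR cells, although *MET* itself was lower. *ERBB3*, the kinase-impaired partner through which *MET* can signal, had 20.2 and 18.0 FPKM in PC9 and 19.3 and 18.9 FPKM in PC9OR cells (adjusted p = 0.413).

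The ligands of *MET*, *MST1R* and *IGF1R* had few or no counts in either line. *HGF*, the *MET* ligand, was listed in none of the 4 libraries and was taken as 0, and a count of 0 allows up to 3 counts, or 0.0932 to 0.129 CPM at these depths, for counting error alone. *MST1*, the *MST1R* ligand, had 15 and 33 counts in PC9 and 19 and 15 counts in PC9OR cells (adjusted p = 0.282). *IGF1* had 4.16 and 0 counts in PC9 and 0 and 0 in PC9OR cells, and *IGF2* had 8 and 2 counts in PC9 and 0 and 2 in PC9OR cells. No direction was read from counts of that size.

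Of 78 other genes of these pathways, 74 were listed and 67 tested. Of those 67, 6 (8.96%) were called higher and 28 (41.8%) lower in PC9OR cells, against the 15.6% and 20.8% of all genes, with a median log2 fold change of -0.46. These genes have long transcripts, with a median of 4960 bases, and with length offsets 10 (14.9%) were higher and 22 (32.8%) lower, with a median of -0.17.

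In the *MET* and *MST1R* axis, 1 of 18 tested genes was higher and 9 were lower, against 15.6% and 20.8% of all genes. With length offsets 2 (11.1%) were higher and 8 (44.4%) lower, against 19.9% and 18.4% of all genes. The receptor phosphatase *PTPRF* had 55.0 and 36.9 FPKM in PC9 and 12.3 and 11.8 FPKM in PC9OR cells (log2 fold change -1.87, adjusted p = 0.00646). *PTPRJ*, a phosphatase that acts on *MET*, had a log2 fold change of -1.46, *CD44*, a coreceptor of *MET*, of -1.82, and *PLXNB2*, a semaphorin receptor, of -1.24. *CBL*, the ubiquitin ligase that sends *MET* and *EGFR* for degradation, had 14.7 and 10.2 FPKM in PC9 and 4.11 and 4.03 FPKM in PC9OR cells (log2 fold change -1.57, adjusted p = 0.00761, and -0.73 with length offsets). The adaptors *GAB1* and *GRB2* had log2 fold changes of -0.79 and -0.67. The call for *GAB1* was lost with length offsets, at -0.23 (adjusted p = 0.29). Among the regulators of ligand activation, the protease *ST14* and the inhibitor *SPINT1* were lower, at -0.79 and -0.99, and the inhibitor *SPINT2* was higher, at 0.67 (adjusted p = 0.0391). The list's lower genes thus included both partners and negative regulators of *MET*.

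In the TAM axis, 2 of 11 tested genes (18.2%) were higher and 4 (36.4%) lower, against 15.6% and 20.8% of all genes. With length offsets 2 (18.2%) were higher and 3 (27.3%) lower, against 19.9% and 18.4% of all genes. *LGALS3*, a galectin reported as a *MERTK* ligand, had 25 and 32 FPKM in PC9 and 46.7 and 48.4 FPKM in PC9OR cells (log2 fold change 0.75, adjusted p = 0.0238). The signaling inhibitor *SOCS3* had a log2 fold change of -1.02, the adaptor *GAB2* of -1.45 and the kinase *CSK* of -1.21. *TNS2*, a tensin, was called higher (adjusted p = 0.014) but rested on 3.34 and 2.10 counts in PC9 and 36.1 and 31.5 counts in PC9OR cells.

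In the insulin and IGF axis, 2 of 17 tested genes (11.8%) were higher and 8 (47.1%) lower, against 15.6% and 20.8% of all genes. With length offsets 2 (11.8%) were higher and 7 (41.2%) lower, against 19.9% and 18.4% of all genes. *IGFBP4*, another IGF carrier, had 25.6 and 18.7 FPKM in PC9 and 1.11 and 1.14 FPKM in PC9OR cells, a log2 fold change of -4.26 (SE 0.203, adjusted p = 0.00249). *PAPPA*, the protease that cleaves *IGFBP4*, had a log2 fold change of -1.42 (adjusted p = 0.00631) and -0.61 with length offsets. *IRS1*, the main docking protein of *IGF1R* and *INSR*, had 16.6 and 11.3 FPKM in PC9 and 6.36 and 5.96 FPKM in PC9OR cells (log2 fold change -1.14, adjusted p = 0.0143, and -0.48 with length offsets). *IRS2* had a log2 fold change of -0.20 (adjusted p = 0.236). *IGF2R*, a receptor that clears IGF2, had a log2 fold change of -0.75 (adjusted p = 0.0261) and of 0.26 with length offsets, where the sign turned. *IGFBP5* was called higher (adjusted p = 0.0446) from 2 and 0 counts in PC9 and 17 and 18 counts in PC9OR cells. *IGF2BP1*, which binds IGF2 mRNA and not the protein, had a log2 fold change of -1.72 (adjusted p = 0.0101).

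**Figure D5:**
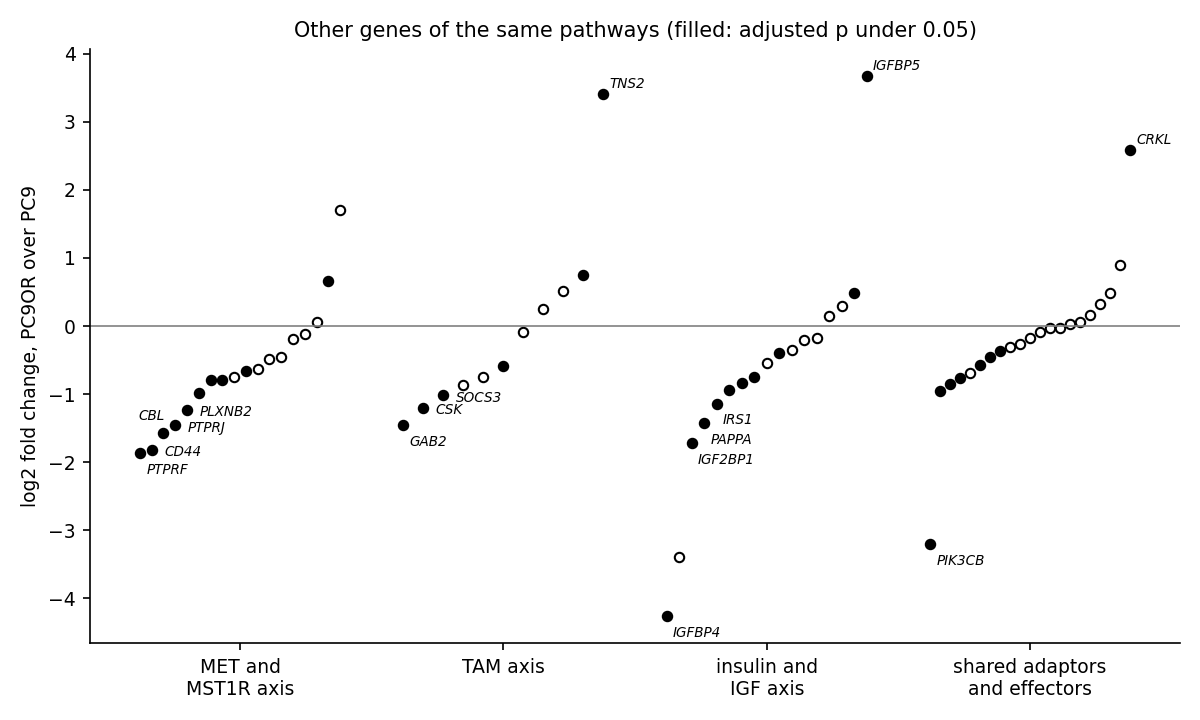
Log2 fold change of PC9OR over PC9 for the 67 tested genes of the 4 pathway lists, sorted within each list and filled where the adjusted p was under 0.05. The 13 genes called lower and the 3 called higher by more than 2-fold are named; *TNS2* and *IGFBP5* rest on few counts in PC9.

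For *MET*, *AXL* and *IGF1R*, the genes with the most similar pattern were found among 9138 genes of at least 10 CPM on average, by the Euclidean distance of centred log2 CPM over the 4 libraries. For *MET* they were *ST6GAL1*, at a distance of 0.035, and *RRAGC*, at 0.039. For *AXL* they were *ZNF839*, at 0.058, and *NEK4*, at 0.060. For *IGF1R* they were *CENPBD1P*, at 0.020, and *CLMN*, at 0.073. These distances rest on 4 libraries of 2 lines.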

How the data were processed

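RNA from PC9 and PC9OR cells (2 biological replicates each) was prepared with a TruSeq Stranded kit and sequenced on an Illumina HiSeq at 100 bp. The authors filtered reads with SOAP, and the submitters' processing notes name Bowtie2 2.2.5, RSEM 1.2.12 and GRCh37. The strand setting of the counting was not given in the sources used here. For each gene the authors deposited an expected count (estimated, not normalized) and an FPKM value (scaled by transcript length and library size). Genes missing from a library were set to 0. Symbols were matched for 99.7% of Entrez identifiers, and positions were taken from GENCODE lifted to GRCh37. Counting intervals and floors cover counting error only.

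Rounded expected counts were tested with edgeR 4.0.16 under R 4.3.3 (TMM scaling, filterByExpr, glmQLFit and glmQLFTest), which left 13148 genes. Genes were called at a Benjamini-Hochberg adjusted p under 0.05. The SE was the log2 fold change divided by the square root of the F statistic. The study's threshold (more than 2-fold, adjusted p under 0.001) was an alternative. Offsets were smooth curves of log counts against transcript length fitted with mgcv 1.9.3. Other alternatives used DESeq2 1.42.0, limma 3.58.1 on log2(FPKM + 1) and log2(FPKM + 0.1), library totals, other filters, a replicate block and each library left out in turn. On simulated libraries of 13148 genes, edgeR's test called 65% of 100 genes changed 2-fold and 92% of 100 changed 4-fold, with 13 false calls. Each simulated gene had the same spread in both lines and no trend with transcript length. The false calls therefore do not cover the unequal spread and the length trend of the real libraries.

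The 10 genes, the pathway lists and the alternatives were chosen with earlier results of these data known. Named were all 10 genes, *EGFR*, *ERBB3*, ligands and paralogs at low counts, pathway genes past the threshold with more than 2-fold change, the 2 genes most like *MET*, *AXL* and *IGF1R*, and neighbours that moved the same way as a gene by more than 2-fold. Any further gene was chosen with its values in view. Since the sources do not say that the replicates were separate cultures, p-values measure the spread between these libraries. The result for 1 single marker gene is not reported here.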

Additional observations from a re-analysis of the deposited data

How the results depend on the processing

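Over the 10 genes and 15 alternatives, 128 of 150 values kept the direction and the side of the threshold, 16 lost the call, 2 gained it and 4 changed sign. The sign changes were *TYRO3* at 0.0861 with length and GC offsets, and *IGFBP6* at -0.0214 with length offsets, -0.10 with length and GC offsets and -0.0118 with length offsets and a replicate block. The cause was not tested.

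By limma on log2(FPKM + 1), 1 of the 10 genes and 2 pathway genes were higher, and on log2(FPKM + 0.1), 3 pathway genes were higher. With length offsets 10 pathway genes were higher and 22 lower, among 2616 higher and 2413 lower in all, and with length and GC offsets 15 were higher and 27 lower, among 2932 and 2590. Calls of more than 2-fold numbered 806 higher and 1523 lower, with 1 of the 10 genes higher, and 3 pathway genes higher and 13 lower. At more than 2-fold and an adjusted p under 0.001, edgeR's fit without offsets or block gave 0 for all of these counts. That fit had 2685 genes of more than 2-fold at an unadjusted p under 0.05. The zeros do not hold for every alternative. By the DESeq2 Wald test *MET*, *IGF1R*, *INSR* and *IGFBP3* passed (adjusted p = 1.49e-15, 2.42e-05, 4.23e-05 and 1.13e-17). With the replicate block, *MET* and *IGFBP3* passed by edgeR's test (adjusted p = 0.00046 and 8.0e-05).

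The labels do not say whether same-numbered replicates were paired, and their deviations had a correlation of 0.058 over only 2 pairs. That value cannot decide it, since the PC9 difference followed transcript length and the PC9OR difference did not. With the replicate number as a block, 2593 genes were higher and 2946 lower, and 3 of the 10 genes were higher and 4 lower. With the replicate block and length offsets, 3185 genes and 10 pathway genes were higher. Of all calls, 42.9% were higher in the fit without offsets, 53.1% with length and GC offsets and 55.0% with length offsets and the replicate block.

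Leaving out each library in turn gave 525 to 3932 genes higher and 1177 to 3929 lower, 1 to 4 of the 10 genes higher and 2 to 5 lower, and 1 to 7 pathway genes higher and 12 to 37 lower. The lowest counts came without a PC9OR replicate (525 and 1177 genes without replicate 1, 527 and 1191 without replicate 2), and the highest without PC9 replicate 2, except for the 7 pathway genes higher, which came without PC9 replicate 1. A line left with 1 library was assumed to vary like the other.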

Other observations

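The adaptors and effectors that all of these receptors share were tested as a list of 21 genes, of which 1 was higher and 7 lower in PC9OR cells (quasi-likelihood test of edgeR), against 15.6% and 20.8% of all genes. With length offsets 4 (19.0%) were higher and 4 (19.0%) lower, near the 19.9% and 18.4% of all genes. *CRKL*, an adaptor downstream of *MET* and *IGF1R*, had 18.6 and 17.5 FPKM in PC9 and 107 and 104 FPKM in PC9OR cells, a log2 fold change of 2.59 (SE 0.109, adjusted p = 0.0022). *PIK3CB*, a catalytic subunit of phosphoinositide 3-kinase, had 11.6 and 7.68 FPKM in PC9 and 0.99 and 1.08 FPKM in PC9OR cells, a log2 fold change of -3.20 (SE 0.227, adjusted p = 0.00401). Its paralog *PIK3CA*, named after its values were seen, had 8.51 and 8.45 FPKM in PC9 and 8.65 and 8.25 FPKM in PC9OR cells, with a log2 fold change of 0.03 (adjusted p = 0.82) and of 0.69 with length offsets (adjusted p = 0.0174). *PIK3R1*, a regulatory subunit also named after its values were seen, was not listed, and so taken as 0, in PC9 replicate 1 against 372 counts in PC9 replicate 2 and 383 and 392 counts in PC9OR cells.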
